A study of Rattus norvegicus with 2 samples.

Results

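The genes that encode receptors for glutamate, GABA, glycine and acetylcholine were examined in cultured rat cortical neurons. They were chosen by name, as every listed gene whose rat symbol starts with Gria, Grik, Gabr, Chrn, Chrm, Glra or Glrb, or is one of the Grin1 to Grin3 or numbered Grm genes. This gave 25 genes of the 9894 listed in either library, 24 in the control library and 20 in the RNAi library. The RefSeq gene table of rat holds 69 such symbols, and the other 44, among them Gria2, Grin2a and Grm5, are not analysed here.

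The cells came from cortical tissue of Sprague-Dawley rat embryos at E16. They were dissociated, electroporated with plasmid and kept for 48 h in medium with serum, so both libraries share the dissection, the electroporation and the serum. The control library came from cells given a control plasmid, which in the study carries a scrambled sequence, and the RNAi library from cells given an RNAi plasmid against PIWIL1, a PIWI family protein. The sources used here name neither which siRNA was sequenced nor whether electroporated cells were separated from the others. Each group is 1 library, so there is no replicate check, and every interval and test below covers the counting of tags in these 2 libraries and no spread between cultures. PIWIL1 itself is not analysed here, and its level could not serve as a check of the labels.

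Fast excitation in the cortex runs through ionotropic glutamate receptors, tetramers built from AMPA, kainate or NMDA receptor subunits. GABA-A and glycine receptors are pentameric chloride channels, and in embryonic neurons, whose chloride is high, they often depolarise the cell. The glycine receptor with the alpha 2 subunit is the form known from immature neurons. Nicotinic receptors are cation channels opened by acetylcholine, whereas the muscarinic and metabotropic glutamate receptors act through G proteins.

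Each transcript was represented by a tag of 21 bases that starts at a CATG site, and the sites of a transcript are numbered from its 3′ end, so that site 1 is nearest the poly(A) tail. The tags below carry most of the receptor signal: the most copied tag of the most copied gene of each family, with CATG in capitals. They are given as deposited, 5′ to 3′, and each was listed under a single gene.
Grik5 (kainate), site 1: CATGtgggtgtcccctggtgc
Glra2 (glycine), site 1: CATGtgctgtaaaagggatta
Grin1 (NMDA), site 1: CATGaccagctctcccagtgt
Gabra5 (GABA-A), site 4: CATGtttaataatatgtacaa
Chrm3 (muscarinic), site 1: CATGtttatataaagaatatt
Grm2 (metabotropic glutamate), site 6: CATGcaaaggtgcttccagac
Gria4 (AMPA), site 1: CATGtaataatgccaccatat
Chrnb2 (nicotinic), site 3: CATGcgaagtgaggatgatga
For Gabra5, the tag of site 1, CATGattggattatcgctctg, had as many copies as the tag shown.

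The receptor genes held 850 of the 1947600 copies on genes in the control library and 806 of 1865913 in the RNAi library. Scaled by the authors to all clean tags of a library (TPM, tags scaled to a fixed library total), this is 251 TPM with a 95% Poisson interval of 234 to 268 in the control library and 244 TPM (227 to 261) in the RNAi library. The median receptor gene had 9 copies in both libraries together, against 86.5 for all genes. The tables hold no tag with fewer than 2 copies, so a gene whose tags were each read once is missing from them. A gene was taken as detected at 3 copies, which is 0.886 TPM in the control library and 0.908 TPM in the RNAi library, and this level was also taken as the limit that a count of 0 allows. The missing single-read tags would raise that limit, and the two-sided 95% Poisson interval of 0 copies, at which Grin2c in the control library and Gria1 in the RNAi library stood, reached 1.09 and 1.12 TPM. At this limit 19 receptor genes were detected in the control library, 17 in the RNAi library and 15 in both.

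The label of neurons was checked against marker genes. All 8 neuronal markers were listed, led by Stmn2, and their sum was 3424 TPM in the control library and 2689 TPM in the RNAi library. The 8 markers of radial glia and astrocytes summed to 1089 and 1374 TPM, of which Vim, a filament gene of glia and fibroblasts, made up 789.5 and 1127 TPM. Of these 8 markers 6 were lower in the RNAi library and 2, Vim and Gfap, were higher. Of 6 vascular and meningeal markers 4 were listed, with 542 and 517 TPM, mostly Col1a1, while Pecam1 and Cldn5, which define endothelium, had no value. Of 7 markers of excitatory cortical neurons 6 were listed, with 681 and 625 TPM, and 3 were lower and 3 higher in the RNAi library. The 7 GABAergic markers summed to 92.4 and 90.2 TPM, the 5 oligodendrocyte lineage markers to 5.02 and 5.75 TPM, 4 of 5 microglial markers to 18.3 and 20.9 TPM without Cx3cr1, the 4 erythroid markers to 28.6 and 45.4 TPM, and 2 of 4 Cajal-Retzius symbols to 16.8 and 10.9 TPM. Among the GABAergic markers 4 were lower and 3 higher in the RNAi library. Lhx6, at 20.1 and 10.6 TPM, was the only 1 of them called down by the test described below. Transcripts of neurons were thus present together with markers of other cell types, whose part in the receptor values was not tested. Lower levels of a transcript per cell and fewer cells of a type cannot be told apart in them.

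**Figure D1:**
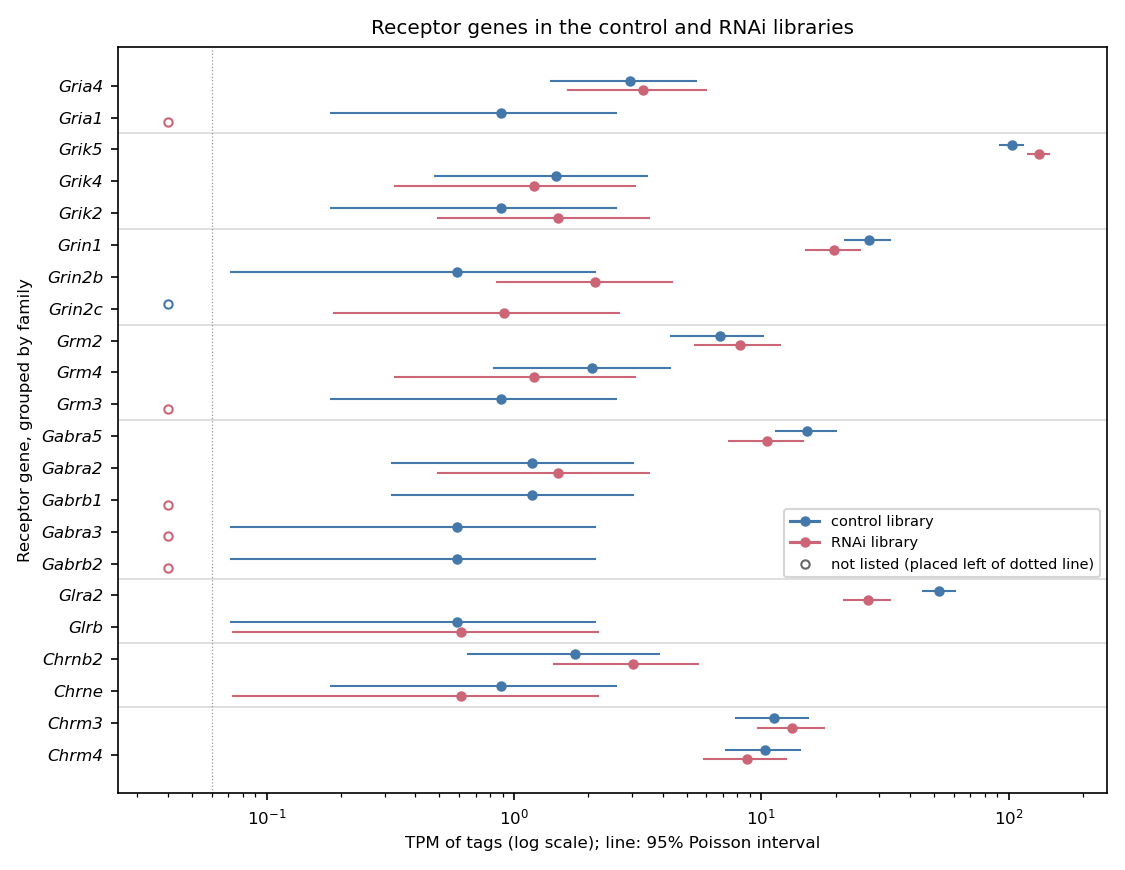
Level of 22 of the 25 receptor genes, grouped by family, in the control (blue) and RNAi (red) library as TPM of tags on a log scale, with 95% Poisson intervals that cover counting error only. Open circles left of the dotted line mark genes not listed in that library. Grik5 lies highest in both libraries, and Glra2 is the gene whose intervals lie farthest apart.

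The genes were then compared between the libraries. For each gene its copies and all other copies on genes were compared in the 2 libraries with Fisher's exact test (two-sided), and p-values were adjusted by Benjamini and Hochberg's method over all 9894 genes to give an FDR, here written exact-test FDR. Genes were called where this FDR did not exceed 0.05 and where the log2 ratio of TPM, RNAi over control, was at least 0.58 in either direction. Over all genes 591 (5.97%) were called down and 293 (2.96%) up. Of the 25 receptor genes 1 was called down, Glra2, and 0 were called up. With 1 gene of 25, the share called down is close to that of all genes. Among the 7443 genes that had 20 copies or more, 7.38% were called down and 3.56% up, against 1 and 0 of 9 receptor genes. At an unadjusted p below 0.05 there were 2 receptor genes, Glra2 and Grik5, against 26.5% of all genes, and the exact test of edgeR, given a biological coefficient of variation of 0.1, also called Glra2 alone. The 95% interval of the ratio excluded 0 on the lower side for Glra2 alone and on the higher side for Grik5 alone, whereas it did so for 16.2% and 9.44% of all genes. Of 19 receptor genes listed in both libraries 11 were higher and 8 lower in the RNAi library, with a median log2 ratio of 0.05 against -0.085 for 8899 genes of all kinds. The smallest total with which any gene was called was 7 copies in both libraries together, and 9 of the receptor genes had fewer.

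**Figure D2:**
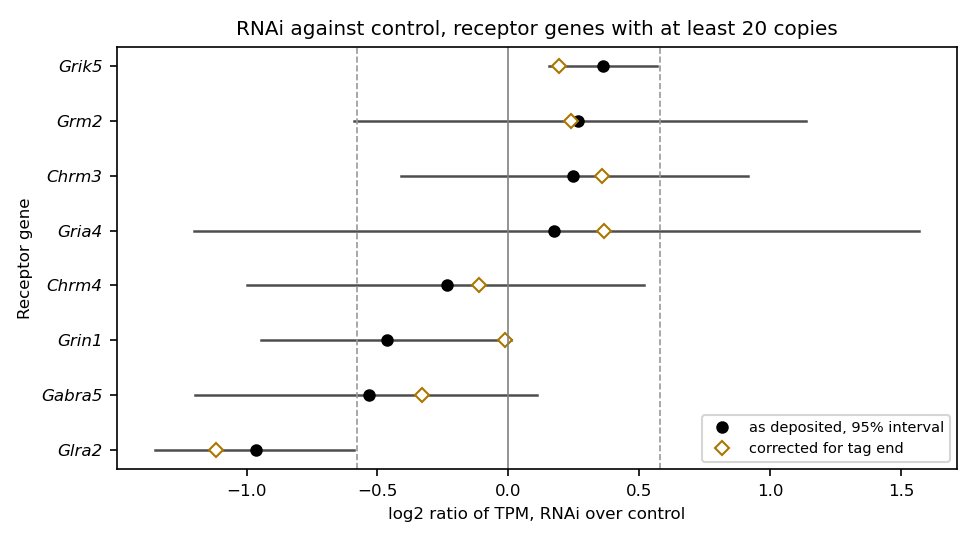
Log2 ratio of TPM, RNAi over control, of 8 of the 9 receptor genes that had 20 copies or more, both libraries summed, with exact 95% intervals (black), and the same ratio after copies were corrected for the last bases of each tag (open diamonds). Dashed lines mark the threshold of 0.58 in either direction. Glra2 lies below the lower line, and the interval of Grik5 is the only other that excludes 0.

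Among the glutamate receptors, the kainate family was read most deeply, and nearly all of it was Grik5, which encodes GluK5, a high-affinity subunit that forms channels only together with other kainate subunits. Grik5 had 349 copies in the control library and 437 in the RNAi library, or 103 TPM (92.5 to 114) and 132 TPM (120 to 145), and held 97.9% of the kainate receptor copies. The RNAi library was higher by a log2 ratio of 0.36 (95% interval 0.15 to 0.57, exact-test FDR 0.00231), which is short of the fold threshold. With any fold, 7.14% of all genes were higher and 9.53% lower at the same FDR. Most copies lay on the site 1 tag, which went from 299 to 379 copies, and the other tags together went from 50 to 58. Of these 58 copies, 12 were on tags that differ by a single base from the site 1 tag, and without them the other tags went from 50 to 46. Tags with the same last bases, GC, had a median log2 ratio of 0.15, and with copies corrected for such tag ends the log2 ratio of Grik5 was 0.19 and the exact-test FDR 0.145, no longer past 0.05. In edgeR at a coefficient of variation of 0.1 the FDR of Grik5, with copies as deposited, was 0.507.

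Grik4, whose product GluK4 is the other high-affinity subunit, had 5 copies in the control library and 4 in the RNAi library. Grik2, which encodes GluK2, a subunit able to form channels alone, had 3 and 5 copies. Neither gene can show a difference at these counts, since the 95% interval of the log2 ratio ran from -2.62 to 1.93 for Grik4 and from -1.59 to 3.46 for Grik2. The product of Grik5 needs a partner such as GluK2, and the copies of Grik2 were at or near the limit of detection in both libraries.

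The NMDA receptor genes were led by Grin1, which encodes GluN1, the obligatory subunit of every NMDA receptor. Grin1 had 92 copies in the control library, or 27.2 TPM (21.9 to 33.3), and 65 in the RNAi library, or 19.7 TPM (15.2 to 25.1). The log2 ratio was -0.46 with an interval of -0.95 to 0.0087 and an exact-test FDR of 0.224, so no difference could be detected at this depth. Its copies were spread over 10 tags, of which the site 1 tag went from 53 to 41 copies and the tag of site 4, CATGggttcggtatcaggaat, from 15 to 4. The site 2 tag, CATGctggtggctggaggcat, had 8 copies in the control library and was not listed in the RNAi library. The site 1 tag ends in GT, an end whose tags had a median log2 ratio of -0.67 in these libraries, and once copies were corrected for the tag end Grin1 had a log2 ratio of -0.013.

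The GluN2 subunits, which set the kinetics of the receptor, were close to the limit of detection. Grin2b, which encodes the GluN2B subunit that prevails in the embryonic cortex, had 2 copies in the control library and 7 in the RNAi library. Its tags lay at sites 24, 33 and 34 from the 3′ end, far from site 1, which held most copies over all genes. Grin2c had 3 copies in the RNAi library alone. Grin1 held 97.9% of the NMDA receptor copies in the control library and 86.7% in the RNAi library.

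The AMPA receptor genes had few copies. Gria4, whose product GluA4 is prominent in early development and in some interneurons, had 10 copies in the control library and 11 in the RNAi library, or 2.95 and 3.33 TPM. The log2 ratio was 0.17 (-1.20 to 1.57). Gria1, which encodes GluA1, had 3 copies in the control library and was not listed in the RNAi library.

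Of the metabotropic glutamate receptors, Grm2, a group II receptor that lowers cyclic AMP, had 23 copies in the control library and 27 in the RNAi library, or 6.79 and 8.17 TPM. The log2 ratio was 0.27 (-0.59 to 1.14). None of its 8 tags lay at site 1, and the most copied one, at site 6, went from 11 to 9 copies while the other tags together went from 12 to 18. Grm4, a group III receptor, had 7 and 4 copies on a single tag, and Grm3, the other group II receptor, had 3 copies in the control library and none listed in the RNAi library.

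The GABA-A receptor had the most genes listed, 8, with 91 copies in the control library and 67 in the RNAi library. Alpha and beta subunits bind GABA at their interface, and a gamma subunit brings the receptor to the synapse. Gabra5, which encodes the alpha 5 subunit of extrasynaptic receptors and is typical of embryonic cortex, held 57.1% of these copies in the control library and 52.2% in the RNAi library. It had 52 and 35 copies, or 15.35 TPM (11.5 to 20.1) and 10.6 TPM (7.38 to 14.7), and the log2 ratio was -0.53 (-1.20 to 0.11, exact-test FDR 0.318). No single tag led: the site 1 tag had 11 and 9 copies, the site 4 tag 10 and 10, and the site 3 tag, CATGaagagcaaactgtggac, 11 copies in the control library alone.

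Gabra2, which encodes the alpha 2 subunit, had 4 copies in the control library and 5 in the RNAi library. Gabrb1 with 4 copies, Gabra3 with 2 and Gabrb2 with 2 were listed in the control library only. Over all families, 5 receptor genes were listed in the control library only and 1 in the RNAi library only, none with more than 4 copies, and no ratio is given for them.

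The glycine receptor was represented almost wholly by Glra2, which encodes the alpha 2 subunit and held 98.5% of the glycine receptor copies. Glra2 had 178 copies in the control library, or 52.6 TPM (45.1 to 60.9), and 89 in the RNAi library, or 26.9 TPM (21.6 to 33.2). It fell by 0.96 on the log2 scale (95% interval -1.35 to -0.59), or to 0.513 of its control level, at an exact-test FDR of 6.47e-06. Glrb, the beta subunit that anchors the receptor to gephyrin at synapses, had 2 copies in each library.

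The lower count of Glra2 came from its site 1 tag. Of its 5 tags, 4 are shown with their site and with CATG in capitals, in order of their copies.
Glra2, site 1: CATGtgctgtaaaagggatta
Glra2, site 3: CATGatatgcaaggtcaagtt
Glra2, site 2: CATGttttaagtaagaaaaaa
Glra2, site 4: CATGagcataactcccatcca
The site 1 tag went from 161 copies in the control library to 68 in the RNAi library, a log2 ratio of -1.21 with an interval of -1.64 to -0.79. The site 2 tag had 8 copies in each library and the site 3 tag 6 and 10. The site 4 tag had 3 copies in the control library only. The 4 tags other than site 1 together went from 17 to 21 copies, a log2 ratio of 0.34 with an interval of -0.65 to 1.35 that does not overlap that of the site 1 tag. Without its most copied tag, an alternative chosen after seeing the data, Glra2 was not called (exact-test FDR 0.783). The share of Glra2 copies on site 1 was 90.4% in the control library and 76.4% in the RNAi library.

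The same split was counted over the called genes. Of 424 genes called down that had at least 20 copies outside their most copied tag, 37 (8.73%) had those other tags higher in the RNAi library, as Glra2 did, and of 211 genes called up 33 (15.6%) had them lower. The site 1 tag ends in TA, and 806 tags with this end had a median log2 ratio of 0.036 with quartiles of -0.36 and 0.35. With copies corrected for the tag end Glra2 had a log2 ratio of -1.12 and an exact-test FDR of 1.29e-07, and stayed called. Of the 8 neuronal markers 1 was called, Snap25, down at a log2 ratio of -0.72 (exact-test FDR 1.74e-17). Of the others, Stmn2 (-0.36, exact-test FDR 3.06e-38), Tubb3 (-0.49, exact-test FDR 2.30e-14) and Nefm (-0.50, exact-test FDR 0.0028) were lower. These 3 passed the FDR limit and were short of the fold threshold. Nefl, with only 6 copies in the control library and 2 in the RNAi library, had -1.54 (interval -4.89 to 0.93). Dcx had 0.07 and Rbfox3 0.04, and Syt1 was listed only in the RNAi library, with 5 copies. Their part in the result of Glra2 was not tested, and that of the tag ends was not tested beyond the correction given here.

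**Figure D3:**
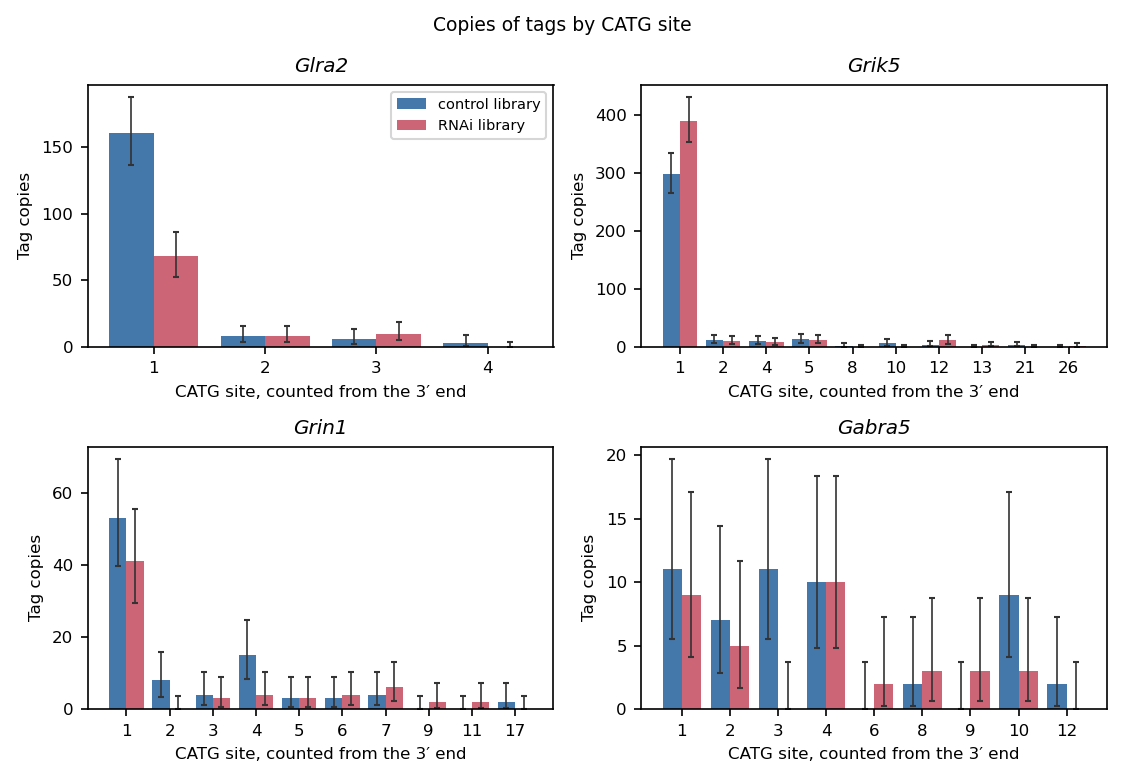
Copies of tags at each CATG site, counted from the 3′ end, for Glra2 (sites 1 to 4), Grik5, Grin1 and Gabra5 in the control (blue) and RNAi (red) library, with 95% Poisson intervals. In Glra2 the libraries differ at site 1 (161 against 68 copies) and have at most 10 copies at each other site, and in Gabra5 the copies are spread over 9 sites.

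The acetylcholine receptors were mostly muscarinic. Chrm3, which encodes the M3 receptor coupled to Gq, had 38 copies in the control library and 44 in the RNAi library, or 11.2 and 13.3 TPM, and all but 2 of its copies lay on the site 1 tag. Chrm4, the M4 receptor coupled to Gi, had 35 and 29 copies, or 10.3 and 8.78 TPM. The log2 ratios were 0.25 (-0.41 to 0.91) for Chrm3 and -0.23 for Chrm4, whose interval reached up to 0.52, and neither difference could be detected at this depth. The nicotinic receptors were near the limit of detection. Chrnb2, the beta 2 subunit of the main nicotinic receptor of the brain, had 6 and 10 copies, and Chrne, known as the adult muscle subunit, had 3 and 2.

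The order of the genes was compared on the number of copies of tags, which is meant to give 1 tag for each transcript and is not scaled to transcript length. In the control library the intervals of Grik5, Glra2, Grin1 and Gabra5 did not overlap from one gene to the next. From Gabra5 down, through Chrm3, Chrm4, Grm2 and Gria4, each interval overlapped the next. In the RNAi library Grik5 stood apart, and from Glra2 down, in the order of that library, each of their intervals overlapped the next. By the most copied tag alone, the order began with Grik5 (678 copies in both libraries together), Glra2 (229), Grin1 (94) and Chrm3 (80), and Gabra5 dropped to 20 copies because no tag of it led. The share of receptor copies on site 1 was 73.5% in the control library and 77.7% in the RNAi library, against 62.7% and 64.6% for all genes.

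Lists of related genes were set beside the receptors. The lists held 86 symbols of auxiliary subunits, scaffolds, transmitter enzymes and transporters, of which 64 had a value, in 65 listed genes. Of these, 2 (3.08%) were called down and 3 (4.62%) up, against 5.97% and 2.96% of all genes, and the median log2 ratio was -0.19. The genes called down were Cacng2, which encodes stargazin, the auxiliary subunit that traffics AMPA receptors, and Dlgap1, a scaffold that links PSD-95 to the Shank proteins. Cacng2 fell from 21 copies to 5 (log2 ratio -2.04, interval -3.80 to -0.59, exact-test FDR 0.0199) and Dlgap1 from 21 to 3 (-2.77, interval -5.16 to -1.03, exact-test FDR 0.00323). Both lost the call, at an exact-test FDR of 0.0771, when tags missing from a single library were given 1 copy there. They also lost it on the most copied tag alone, where the log2 ratio was -1.45 for Cacng2 (exact-test FDR 0.234) and -0.96 for Dlgap1 (exact-test FDR 0.736), and Cacng2 lost it in edgeR at a coefficient of variation of 0.1 (FDR 0.103).

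The genes called up were Shmt2, Slc17a7 and Slc6a5. Shmt2, the mitochondrial enzyme that makes glycine from serine, rose from 129 to 228 copies (log2 ratio 0.86, interval 0.54 to 1.18, exact-test FDR 4.01e-07). Slc17a7, the vesicular glutamate transporter VGLUT1, rose from 108 to 163 copies (0.63, interval 0.27 to 0.99, exact-test FDR 0.0028), while Slc17a6, which encodes VGLUT2, had 50 and 30 copies (-0.70, exact-test FDR 0.172). Slc17a7 lost the call on its most copied tag alone (log2 ratio 0.53, exact-test FDR 0.223) and in edgeR at a coefficient of variation of 0.1 (FDR 0.232), and Shmt2 lost it without its most copied tag (0.38, exact-test FDR 0.658). Slc6a5, the neuronal glycine transporter, was listed only in the RNAi library, with 8 copies on a single tag (exact-test FDR 0.0238), and no ratio is given for it. Without control copies it was taken to pass the fold threshold. Slc6a5 lost the call with 1 copy added to each gene and with 1 copy put back for tags in a single library. The call was also lost in edgeR at a coefficient of variation of 0.1.

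Most other genes of the lists did not pass the test, by which 5.97% of all genes were called down and 2.96% up. Of the auxiliary subunits of AMPA and kainate receptors, 1 of 8 was called, and Cnih2, which slows AMPA receptor gating, had 536 and 500 copies (log2 ratio -0.06), and Shisa7, another AMPA receptor partner, 78 and 55 (-0.47). Of the glutamate receptor scaffolds 1 of 18 was called, a share of 5.56% that is close to that of all genes called down. In the RNAi library 13 of the 16 listed in both libraries were lower. Their median log2 ratio was -0.39, against -0.085 for all genes, several had few copies, and a shift of the group was not tested. Dlg4, the gene of PSD-95, had 121 and 106 copies (-0.16), Dlgap4 had 272 and 237 (-0.16), Shank3 had 65 and 48 (-0.40) and Pick1, which binds AMPA receptor tails, 195 and 176 (-0.11). Higher in the RNAi library without a call were Grina, with 998 and 1062 copies (0.13), Homer1, with 77 and 81 (0.11), and Nsf, with 53 and 76 (0.56). None of the 10 genes of inhibitory scaffolds and trafficking was called. Gphn, which encodes gephyrin, the anchor of glycine and GABA-A receptors, had 157 and 216 copies, with a log2 ratio of 0.50 (0.19 to 0.80) and an exact-test FDR of 0.00606, short of the fold threshold. Clptm1, which holds GABA-A receptors in the secretory pathway, had 214 and 267 copies (0.36, exact-test FDR 0.028), also short of it. Gabarap had 268 and 221 copies (-0.24), Gabarapl1 689 and 648 (-0.05) and Gabarapl2 351 and 301 (-0.19). The G protein-coupled GABA-B receptor was listed with Gabbr1 at 351 and 301 copies (-0.19) and Gabbr2 at 72 and 54 (-0.38). Grid1, the delta receptor, had 18 and 9 copies (-0.97, interval -2.30 to 0.27). None of the 4 nicotinic chaperones and modulators was called, and Tmem35a, which encodes the chaperone NACHO, had 445 and 418 copies (-0.05) and Ly6h, a nicotinic receptor modulator, 624 and 536 (-0.18). Glul, the glutamine synthetase of astrocytes, had 297 and 214 copies (-0.44, exact-test FDR 0.0122), short of the fold threshold, and the glial glutamate transporter Slc1a3 had 231 and 193 (-0.22). The GABA enzymes Gad1 (21 and 26 copies) and Gad2 (21 and 20) and the vesicular transporter Slc32a1 (104 and 99) were not called, nor were the chloride transporters Slc12a2, with 86 and 63 copies, and Slc12a5, with 10 and 13.

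**Figure D4:**
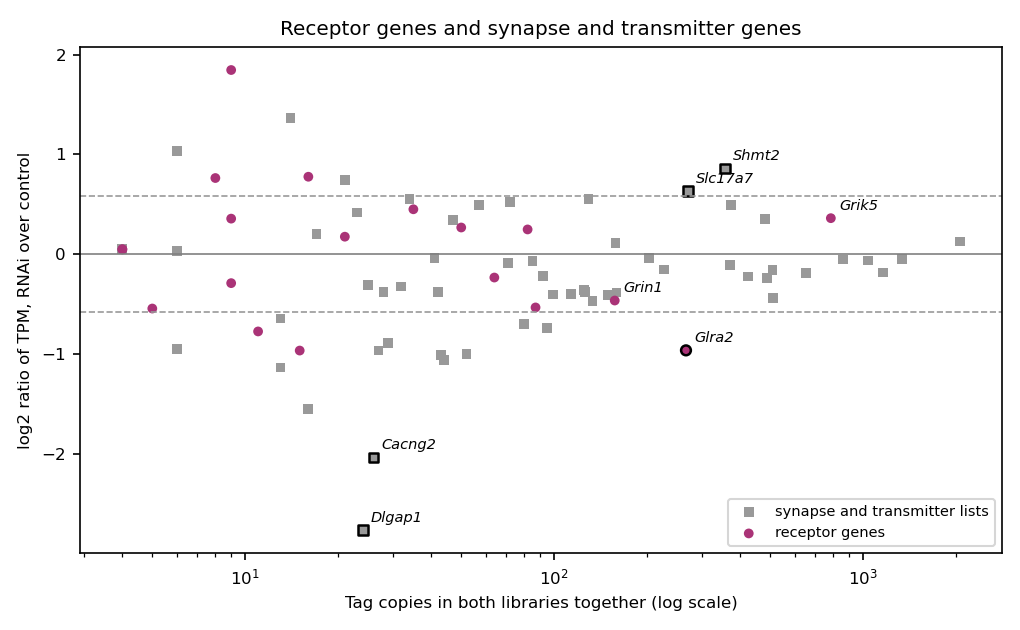
Log2 ratio of TPM, RNAi over control, against the copies of a gene in both libraries together (log scale) for receptor genes (purple circles) and genes of the synapse and transmitter lists (grey squares) listed in both libraries. Called genes have a black outline and a name, Grik5 and Grin1 are named without being called, and dashed lines mark the fold threshold of 0.58. Genes with few copies scatter widely, and Glra2 is the only outlined receptor gene.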

How the data were processed

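Digital gene expression libraries of 2 samples were used, 1 for the control plasmid and 1 for the RNAi plasmid. In each deposited table the authors give the tag count of a gene, which equals the sum of its tags' copies, the TPM, for which a library's clean tags (3386865 and 3303360, recovered from the values) are the total, and each tag with its site. Their matching program and tag filters are not given in the sources used here, and the submitters' processing notes name the build rn4. Symbols came from the RefSeq table by accession, for 9337 of 9894 genes. No coordinates are printed, since that table is of another build.

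The log2 ratios used the deposited TPM, and the tests used the counts. Intervals were exact (Clopper-Pearson for ratios, Poisson for levels) at 95% and cover counting error only, with no spread between cultures. They may be too narrow even for counting error, because copies of amplified tags are not independent molecules. Every receptor gene that had 20 copies or more, both libraries summed, or a call was to be named, and of the lists the called genes and those with at least 100 copies, and list genes with fewer copies are named as context, chosen after their values were seen. The members and lists were chosen with earlier results of these data known. To correct for tag ends, classes were formed from a tag's last 2 bases or its final run of A, and the median log2 ratio of a class, over tags with at least 20 copies, was estimated in part of the genes and removed in the others. The exact test was tried on simulated libraries that held counting error only, with changes placed in genes with at least 100 copies. Those libraries cannot show how the test does with spread between cultures, or how it recovers changes in genes with fewer copies. Python 3.11.15, SciPy 1.17.1, R 4.3.3 with edgeR 4.0.16, and the size factors of DESeq2 1.42.0 were used. Scaling per kilobase was not run, because the table gives no transcript lengths. Values of 3 receptor genes, 1 list gene and 1 tag are not reported here, though all totals include them.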

Additional observations from a re-analysis of the deposited data

How the results depend on the processing

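No paired analysis was possible because each group is 1 library, and leaving out a library was not possible for the same reason. Glra2 stayed called in the same direction under 12 of 16 alternatives, with log2 ratios from -1.21 to 0.34 over the 16. Some of the 12 had little or no room to change this. Summing copies per symbol, leaving out tags ending in 8 or more A and requiring 10 copies left the copies of Glra2 as they were. An FDR limit of 0.001 lay far above its exact-test FDR of 6.47e-06. Glra2 kept its ratio of -0.9642 and lost the call in edgeR at an assumed coefficient of variation of 0.2 (edgeR FDR 0.917) or 0.4 (edgeR FDR 1) and where an absolute log2 ratio of 1 was required. Without each gene's most copied tag, which was chosen after seeing the data, it reversed to 0.3409, with 17 copies in the control library and 21 in the RNAi library on the other tags. In these 4 cases 0 receptor genes were called down, against 1 as reported, and no alternative called a receptor gene up.

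The lists, with 2 genes called down and 3 up as reported, had 1 and 1 at a coefficient of variation of 0.1, 0 and 0 at 0.2 and 0.4. Down calls numbered 0 with 1 copy put back for tags in a single library and at an FDR of 0.001, and up calls 1 at an FDR of 0.001, at a log2 ratio of 1 and without the most copied tag. The median log2 ratio of the receptor genes, 0.0481, was -0.227 with 1 copy added to each gene and also with 1 copy put back, where genes of a single library enter. Of the uncalled genes, the ratio reversed with only the most copied tag for Grm2 (-0.2535) and Gabra5 (0.036), and without it for Gria4 (-0.379) and Chrm4 (0.2584), while Chrm3 had no ratio without it. At 10 copies or more, 10 receptor genes were detected in each library, against 19 and 17 at 3 copies. By the most copied tag, 7 of 8 families kept their most copied gene.

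Over all genes, 591 were called down and 293 up, 459 and 398 with TMM factors, and 475 and 382 with DESeq2 size factors, which move the median log2 ratio of all genes from -0.085 to 0.0095 and to 3.29e-10. The counts were 170 and 114 in edgeR at 0.1, 2 and 15 at 0.2, 0 and 0 at 0.4, 376 and 179 after the tag-end correction, 262 and 146 at a log2 ratio of 1, 257 and 163 at an FDR of 0.001, and 296 and 111 without the most copied tag. The cause of these changes was not tested. Scaling per kilobase was not run. Depth limits the 16 receptor genes under 20 copies, for which only levels near the limit of detection can be given.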

Other observations

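Several receptor tags overlap or resemble other tags. In Grik5, 5 tags listed only in the RNAi library differ by a single base from its site 1 tag, with positions counted from 1 at the first base of the tag and the differing base in capitals.
Grik5, T9A: CATGtgggAgtcccctggtgc
Grik5, T9G: CATGtgggGgtcccctggtgc
Grik5, T9C: CATGtgggCgtcccctggtgc
Grik5, T19A: CATGtgggtgtcccctggAgc
Grik5, T19G: CATGtgggtgtcccctggGgc
They held 12 copies, against 437 of the gene in that library, and were counted for Grik5. Over all genes 6004 tags were listed at the same site of a gene as a more copied tag, with 0.990% of all copies in the control library and 1.34% in the RNAi library. Neighbouring CATG sites were near enough for tags to overlap in Grik2 and Grin2b. The tags of Grik2 at sites 2 and 1, shown with both CATG sites in capitals, share 16 bases.
Grik2, site 2: CATGgCATGaagctgggaggc
Grik2, site 1: CATGaagctgggaggccaatc
They had 3 and 2 copies, all in the RNAi library, while the 3 control copies of Grik2 lay on another tag. Between the receptor genes, the closest tags were those of the high-affinity kainate subunits, which match at 18 bases, with the 3 that differ in capitals.
Grik5, site 12: CATGcttctTgcCtaCctggc
Grik4, site 9: CATGcttctAgcTtaTctggc
The Grik5 tag had 4 copies in the control library and 11 in the RNAi library.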
